A study of Mus musculus with 89 samples.

Results

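Absorption of dietary sugar by the jejunum rests on a small set of hexose transporters and on enzymes that take up the carbon of fructose inside the enterocyte. Glucose and galactose enter across the brush border with sodium through SGLT1 (Slc5a1), fructose enters through GLUT5 (Slc2a5), and the sugars leave at the basolateral side through GLUT2 (Slc2a2). Ketohexokinase (Khk) traps fructose as its 1-phosphate. PEPCK (Pck1), fructose bisphosphatase (Fbp1) and glucose 6-phosphatase (G6pc) are enzymes of gluconeogenesis. GLUT1 (Slc2a1), which serves basal glucose uptake in many cell types, completes the list. The 8 genes were chosen by name, as transporters and enzymes of hexose handling. Earlier results of these data were known then, and the study itself used Slc5a1, Slc2a5 and Slc2a2 as mid-villus genes on these clumps, so their peak there is no independent result. All 8 were present among the 27538 genes of the clump table and the 23379 genes of the single-cell table.

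The data were MARS-seq profiles of mouse jejunum, in which each well of a plate has its own barcode and each captured mRNA 3′ end carries a unique molecular identifier (UMI). Wells held either clumps, small groups of neighbouring cells from mild EDTA dissociation, or single cells. All mice were C57BL/6 males fed regular chow, labelled as 3 months old apart from 3 plates of single-cell mouse 2 labelled as 4 months, and no group was treated. Clumps came from 5 mice, as pairs of cells by DNA content in all of them and as larger clumps in mice 1, 4 and 5, and single cells came from 4 mice numbered 1 to 4 in their own series. Whether these are among the mice of the clumps was not stated in the labels. Nothing in the labels says whether plates of 1 mouse came from 1 preparation.

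Each clump was given a zone, crypt, mid-villus or villus tip, from enterocyte landmark genes of the study, none of which is among the 8 genes. This left 3529 crypt, 1550 mid-villus and 804 villus tip clumps, 5883 in all. Their UMIs were summed by mouse and zone, to 369045 to 19001409 UMIs in the crypt, 172503 to 2417241 in the mid-villus and 79055 to 816189 at the tip, where mouse 4 gave only 27 clumps. Values are UMIs of a gene per 1000000 UMIs of the sum (CPM), and since a 3′ UMI counts an mRNA once whatever its length, levels can be compared between genes. Enterocyte markers took 0.346 to 1.21% of the UMIs of crypt sums, 3.81 to 7.34% of mid-villus sums and 5.30 to 9.16% of tip sums. This list is itself zonated, since it holds Apoa1 and Apob, which the study used as villus tip genes. Its share is therefore no measure of enterocyte number alone. Other cell types moved with the zones too. Paneth markers took 0.00137 to 1.47% of crypt sums and at most 0.12% of villus sums, stem cell markers 0.0295 to 0.0776% and at most 0.0198%, and goblet markers up to 0.216% of crypt, 0.414% of mid-villus and 0.730% of tip sums. Immune markers took 0.0122 to 0.0998% of crypt, 0.0434 to 0.285% of mid-villus and 0.0545 to 0.384% of tip sums, rising in that order in 4 of 5 mice. A lower level in a sum of clumps can come from fewer enterocytes or from less of the mRNA in each, and these cannot be told apart.

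Stretches of the promoters are printed to show what the genes that rose in the mid-villus hold near their starts. RefSeq promoters of GRCm38.p6, 250 bases before to 50 after each start, matched all 8 genes. Slc5a1 lies at chr5:33104219-33162870 on the plus strand, and Khk on the same strand of that chromosome at chr5:30921431-30931248. Pck1 lies at chr2:173153048-173159273 and G6pc at chr11:101367561-101377903, both on the plus strand. Capitals mark the E box CACGTG, the HNF1 motif GTTAAT, the GATA motif AGATAA and the cyclic AMP response motif TGACGT, each searched on both strands. In Pck1 they mark the reverse complements of the last 3 of these.
Slc5a1, chr5:33104029-33104128, 190 to 91 bases before the start: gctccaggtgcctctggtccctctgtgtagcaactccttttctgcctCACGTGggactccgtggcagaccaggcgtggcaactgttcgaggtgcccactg
Khk, chr5:30921484-30921509, 75 to 50 bases before the RefSeq start: ccgtCACGTGacaccGTTAATctggc
Pck1, chr2:173152863-173153002, 210 to 71 bases before the RefSeq start: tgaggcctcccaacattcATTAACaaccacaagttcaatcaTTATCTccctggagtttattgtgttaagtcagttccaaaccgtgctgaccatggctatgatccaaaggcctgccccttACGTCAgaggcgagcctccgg
G6pc, chr11:101367476-101367555, 240 to 161 bases before the RefSeq start: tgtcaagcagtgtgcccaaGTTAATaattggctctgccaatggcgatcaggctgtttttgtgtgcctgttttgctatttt
The E box was found in 2 of the 8 promoters (Slc5a1 and Khk) and in 7.15% of 32851 mouse promoters of the same length. The HNF1 motif was found in 3 (Khk, G6pc and Pck1) against 7.10% of all promoters, the GATA motif in 2 (Fbp1 and Pck1) against 11.2%, and the cyclic AMP response motif in Pck1 against 7.51%. The motifs do not overlap one another in these stretches. A match describes the letters only.

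In clumps, 7 of the 8 genes were at their highest mean in the mid-villus, and 6 of them were highest there in 5 of 5 mice. Slc2a1 was the exception, with its lowest mean there. The remaining 7 genes passed the filter on low counts and were tested, and all 7 rose from crypt to mid-villus, by 1.87 to 10.2-fold. Of all 7376 genes tested, 39.9% differed between these zones and 16.4% were higher in the mid-villus (edgeR quasi-likelihood test on sums by mouse, Benjamini-Hochberg adjusted p under 0.05). Without clumps that held 10 or more UMIs of a secretory list, 6 of the 7 rises passed (log2 0.79 to 3.37), and that of Fbp1 did not. Levels in every mouse are shown in the plot by zone.

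**Figure D1:**
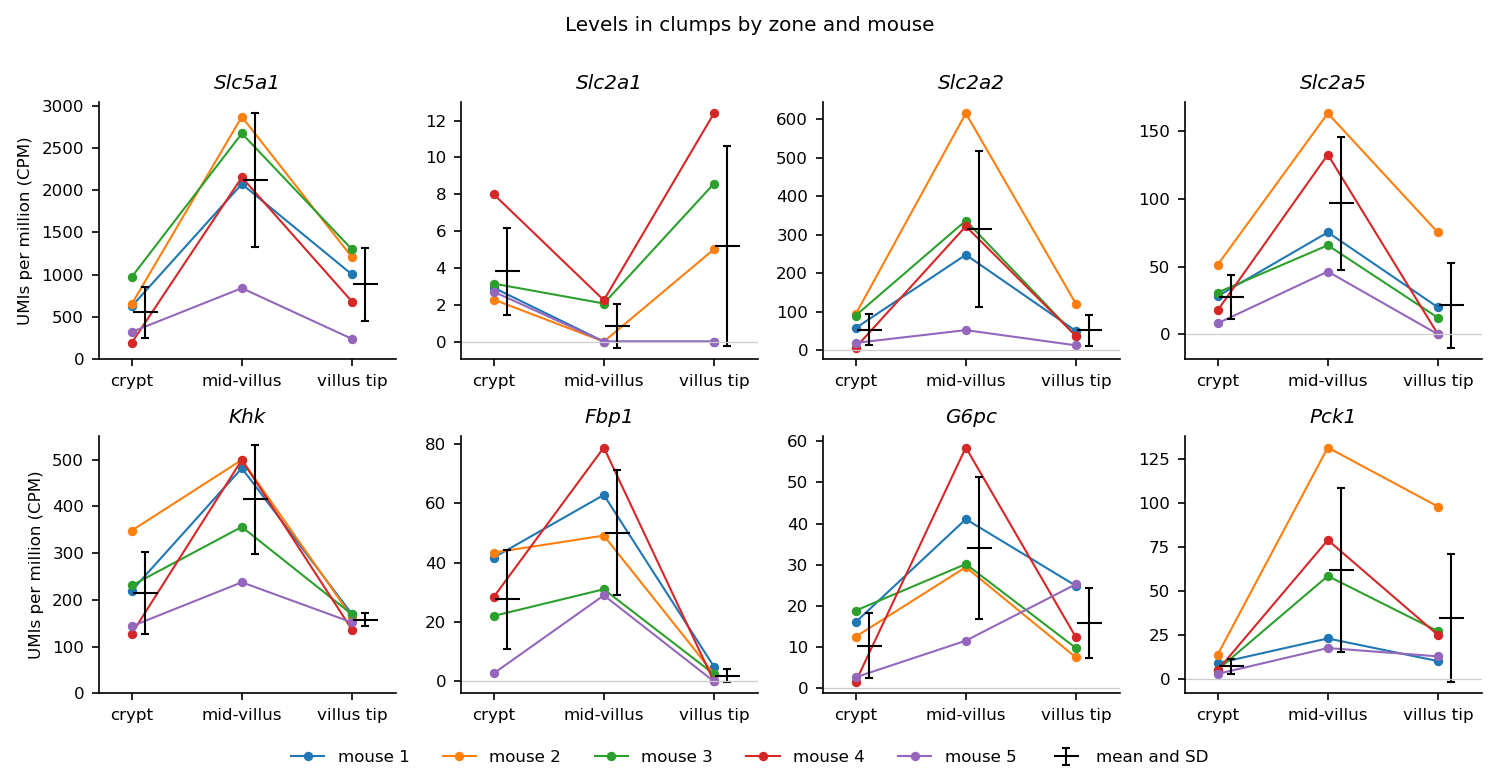
Levels of the 8 genes in clumps, in CPM (linear axes), by zone; colored points are mice 1 to 5 and black marks the mean with its SD. Slc5a1, Slc2a2, Slc2a5, Khk, Fbp1 and Pck1 peak in the mid-villus in 5 of 5 mice and G6pc in 4 of 5, whereas Slc2a1 stays at 12.4 CPM or lower.

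The apical glucose transporter Slc5a1 was the most abundant of the 8 in each zone. It stood at 625, 652, 972, 194 and 322 CPM in crypt clumps of mice 1 to 5, and at 2072, 2867, 2670, 2151 and 841 CPM in mid-villus clumps. Tip clumps held 1002, 1206, 1299, 682 and 240 CPM. All mice rose from crypt to mid-villus, and the groups overlapped only through mouse 5, the lowest of the 5 in both villus zones. The rise to the mid-villus was 4.12-fold (log2 change 2.04, standard error 0.44, edgeR adjusted p = 0.00084). From crypt to tip Slc5a1 was higher in 4 of 5 mice, with a log2 change of 1.05 (standard error 0.43, edgeR adjusted p = 0.045). This call is weak: it was lost in 4 of 5 fits that left out a mouse (log2 changes 0.91 to 1.29) and with scaling by total UMIs alone (0.67, adjusted p = 0.24), with no filter (0.91, 0.15), with a zone margin of 0.1 (0.77, 0.13) and without clumps of secretory content (0.71, 0.16).

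The basolateral transporter Slc2a2, at chr3:28697903-28731359 on the plus strand, had a steeper profile. Crypt clumps held 57.4, 93.6, 90.1, 7.05 and 18.97 CPM, mid-villus clumps 248, 615, 336, 322 and 52.2 CPM, and tip clumps 49.8, 120, 36.8, 37.2 and 12.6 CPM. Each mouse had its peak in the mid-villus, while crypt and tip levels overlapped widely. The rise to the mid-villus was 6.42-fold (log2 2.68, standard error 0.59, edgeR adjusted p = 0.00096) and the fall from there to the tip 4.46-fold (log2 -2.16, standard error 0.62, adjusted p = 0.026), which was lost without mouse 1 or mouse 3 (both adjusted p = 0.12). Tip and crypt did not differ by the test (log2 0.53, adjusted p = 0.50).

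The fructose transporter Slc2a5, at chr4:150119283-150144169 on the plus strand, was less abundant than Slc2a2 in the mid-villus in all 5 mice. Its crypt levels were 28.2, 51.4, 30.9, 17.8 and 8.13 CPM and its mid-villus levels 75.3, 163, 65.8, 133 and 46.4 CPM. Tip levels were 19.9, 75.2 and 12.3 CPM in mice 1 to 3, with no UMI in mice 4 and 5, where 3 UMIs would have been 37.2 and 37.9 CPM. Slc2a5 rose 3.88-fold from crypt to mid-villus (log2 1.96, standard error 0.49, edgeR adjusted p = 0.0032). The tip was lower than the mid-villus in 5 of 5 mice, with a log2 change of -1.49 that did not pass (adjusted p = 0.094), though it did without mouse 2 (-2.68, 0.0078) and with scaling by total UMIs alone (-1.81, 0.042).

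Khk, which commits fructose to metabolism, followed the transporters over a smaller range. It stood at 220, 348, 231, 127 and 144 CPM in the crypt, 482, 500, 356, 499 and 238 CPM in the mid-villus and 169, 163, 169, 136 and 152 CPM at the tip. Tip levels lay close together and below every mid-villus level. Khk rose 2.09-fold to the mid-villus (log2 1.07, standard error 0.28, edgeR adjusted p = 0.0038) and fell 2.23-fold to the tip (log2 -1.16, standard error 0.29, adjusted p = 0.013), a call lost without mouse 1 (-0.99, 0.094). Between tip and crypt the log2 change was -0.09 (adjusted p = 0.81), but 0.67 (adjusted p = 0.037) with the zone taken from the landmark list of highest z score.

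From crypt to tip of clumps, the fitted level of Fbp1 fell and that of Pck1 rose. This difference between the genes was not tested. Fbp1, at chr13:62864753-62888282 on the minus strand, stood at 41.7, 43.4, 22.0, 28.4 and 2.71 CPM in the crypt and at 62.8, 49.1, 31.0, 78.7 and 29.0 CPM in the mid-villus. Its tip sums held 1, 1, 2, 0 and 0 UMIs, or 4.98, 2.51, 2.45, 0 and 0 CPM. The tip lay below the mid-villus in every mouse with no overlap, 16.3-fold lower (log2 -4.03, standard error 0.66, edgeR adjusted p = 0.00052), and 8.74-fold below the crypt (log2 -3.13, standard error 0.68, adjusted p = 0.00068). From UMIs pooled over mice the ratio of mid-villus to tip was 17.5 (exact 95% interval 6.74 to 64.8, counting error only). Its rise from crypt to mid-villus was small, 1.87-fold (log2 0.90, standard error 0.36, adjusted p = 0.049), and was lost without mouse 1, 3 or 4 (log2 0.65 to 0.93, adjusted p = 0.12, 0.14 and 0.20). It was also lost with no filter (0.93, 0.076), background subtraction (0.97, 0.10), a zone margin of 0.1 (0.85, 0.069), scaling by total UMIs alone (0.78, 0.13) and without clumps of secretory content (0.45, 0.36).

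Pck1, the first committed enzyme of gluconeogenesis, stood at 8.78, 13.7, 5.04, 4.79 and 2.71 CPM in the crypt and at 22.8, 131, 58.3, 78.7 and 17.4 CPM in the mid-villus. The groups did not overlap, and the rise was 10.2-fold, the steepest of the 7 (log2 3.36, standard error 0.57, edgeR adjusted p = 7.6e-05). At the tip it stood at 9.97, 97.8, 27.0, 24.8 and 12.6 CPM, above the crypt in 5 of 5 mice (log2 3.01, standard error 0.62, adjusted p = 0.00042). The fitted change from mid-villus to tip was -0.35 (adjusted p = 0.75), although each mouse was lower at the tip in CPM. Tip levels were led by mouse 2, and without it the log2 change from crypt to tip was 2.17 (adjusted p = 0.0027).

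G6pc, the last enzyme before free glucose, was the lowest of the 7 in the mid-villus. It stood at 16.1, 12.6, 18.9, 1.63 and 2.71 CPM in the crypt, 41.1, 29.5, 30.2, 58.5 and 11.6 CPM in the mid-villus and 24.9, 7.52, 9.80, 12.4 and 25.3 CPM at the tip. The tip values rest on 1 to 8 UMIs a mouse. G6pc rose 3.54-fold to the mid-villus (log2 1.82, standard error 0.49, edgeR adjusted p = 0.0052), and neither the tip against the crypt (log2 0.66, adjusted p = 0.42) nor the tip against the mid-villus (log2 -1.16, adjusted p = 0.25) passed.

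Slc2a1, at chr4:119108711-119137983 on the plus strand, was rare in clumps and did not pass the filter on low counts. Crypt clumps held 2.93, 2.28, 3.15, 8.00 and 2.71 CPM, mid-villus clumps 0, 0, 2.07, 2.25 and 0 CPM, and tip clumps 0, 5.01, 8.58, 12.4 and 0 CPM. Each mouse was lower in the mid-villus than in the crypt and the groups did not overlap. The gap was only between 2.28 CPM in the crypt of mouse 2 and 2.25 CPM in the mid-villus of mouse 4. With 6 UMIs in the mid-villus of all mice, this order lies near the counting floor. Pooled over mice, 173 UMIs came from the crypt, of which 152 from mouse 4, and 6 from the mid-villus and 10 from the tip, a ratio of crypt to mid-villus of 5.21 (exact 95% interval 2.34 to 14.4, counting error only). Without mouse 4 this ratio was 2.51 (interval 0.922 to 8.53), and without mouse 3 it was 16.4 (2.90 to 650). Fitted with no filter, the log2 change from crypt to mid-villus was -1.78 (unadjusted p = 0.032, edgeR adjusted p = 0.14).

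Counted over the 7 tested genes, 3 of 7 differed between tip and crypt, where 52.7% of all genes did, and 3 of 7 between tip and mid-villus, where 11.9% did and 6.18% were lower at the tip. All 3 of the latter were lower (Slc2a2, Khk and Fbp1). Without clumps of secretory content they were -2.33, -1.18 and -3.75 (edgeR adjusted p = 0.017, 0.012 and 0.00095), and the changes from crypt to tip were -3.29 for Fbp1 (0.00033) and 3.00 for Pck1 (0.00024). Of the genes called at the tip against the crypt, 42.5% were higher, and 28.7% with scaling by total UMIs alone; against the mid-villus these shares were 48.0 and 26.8%. That scaling moved the median log2 change of all genes from -0.15 to -0.51 at the tip against the crypt and from -0.13 to -0.38 against the mid-villus. With the mouse as a block, 27% of genes differed between tip and mid-villus, and Slc5a1 (log2 -1.12, edgeR adjusted p = 0.00029) and Slc2a5 (-1.63, adjusted p = 0.00017) joined the calls. In pairs of cells alone, the rise to the mid-villus was lost for Slc5a1 (1.35, adjusted p = 0.14), Slc2a5 (1.00, 0.10), Khk (0.42, 0.52) and G6pc (0.47, 0.49), and Fbp1 stood at -0.04. Slc2a2 kept it (2.01, 0.0036), and Pck1 did not pass the filter on low counts there. Pairs also lost the call of Slc5a1 at the tip against the crypt (0.24, 0.79) and that of Khk at the tip against the mid-villus (-1.23, 0.086). Some sums of pairs were small. Mouse 5 gave 17, 13 and 12 pairs in crypt, mid-villus and tip, and mouse 4 gave 6 at the tip. In larger clumps alone, from 3 mice, where 5 genes in all were called between tip and mid-villus, the falls to the tip of Slc2a2 (-2.34, 0.32), Khk (-1.22, 0.27) and Fbp1 (-3.27, 0.32) were lost. The rise of Fbp1 (1.46, 0.065) was also lost there, as were the tip against crypt calls of Slc5a1 (1.25, 0.11) and Fbp1 (-1.81, 0.35). With the zone taken instead from the landmark list of highest z score, 101 genes in all differed between tip and mid-villus, and Slc2a2 (-1.36, 0.22), Khk (-0.71, 0.15) and Fbp1 (-1.71, 0.073) did not, nor did Fbp1 between tip and crypt (-0.64, 0.29). That rule instead called Slc2a2 (1.95, 0.011), Slc2a5 (1.33, 0.026), G6pc (1.55, 0.028) and Khk (0.67, 0.037) higher at the tip than the crypt. In pairs the mid-villus was the highest zone in 3 to 5 of 5 mice for each of the 7 genes.

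A finer ordering placed the same clumps in 6 bins, of equal size over all mice together, by the tip share of their tip and crypt landmark UMIs. Slc2a5, Khk, Fbp1 and G6pc peaked in bin 4, whose median tip share was 0.405, and Slc5a1, Slc2a2 and Pck1 in bin 5, with a median of 0.786. Fbp1 went from a mean of 17.9 CPM in the lowest bin to 51.8 in bin 4, 35.0 in bin 5 and 6.50 in the highest. Pck1 went from 4.07 CPM to 24.0 in bin 4 and 52.7 in bin 5, and stood at 44.8 in the highest bin, where mice 1 to 5 held 13.4, 141, 36.2, 0 and 32.9 CPM. Without mouse 2 its means were 35.7 CPM in bin 5 and 20.6 in the highest. Mouse 4 gave only 8 clumps with 17315 UMIs to the highest bin, where 3 UMIs would have been 173 CPM. Its zeros there say little, yet they count as much as the other mice in the means. Slc5a1 reached 1750 CPM in bin 4 and 1914 in bin 5 from 86.9 in the lowest bin. The order of neighbouring peaks is given as a description and was not tested.

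**Figure D2:**
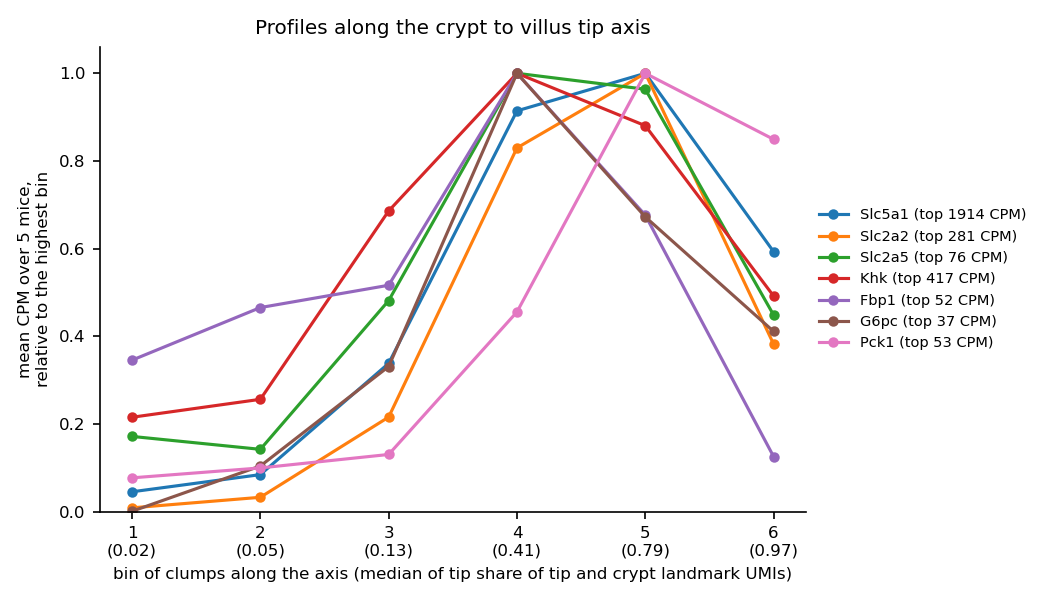
Profiles of 7 genes along the axis in clumps: mean CPM over 5 mice in 6 bins of equal size, each divided by the gene's highest bin (y axis, linear, from 0), against the bin (x axis, with its median tip share of tip and crypt landmark UMIs). Fbp1 drops to 6.50 CPM in the last bin from a peak of 51.8, while Pck1 goes from 52.7 to 44.8 CPM (35.7 to 20.6 without mouse 2). Bins are of equal size over all mice together, and mouse 4 gave only 8 clumps to the last.

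Across the 15 sums by mouse and zone, log2 levels of Slc5a1 and Slc2a2 ran together (Pearson r = 0.93), as did Slc2a2 and Khk (0.89), whereas Fbp1 and Pck1 did so least (0.20). These sums share mice, depth and zones, so the correlations are a description. The 2 genes most alike to each member, among 2372 of at least 50 CPM, included Mgam, the brush border maltase-glucoamylase, for Slc5a1 (r = 0.98), the inositol and glucose transporter gene Slc5a11 for Slc2a2 (0.94), Ddc, aromatic amino acid decarboxylase, for Slc2a5 (0.91) and Ugt2b34, a glucuronosyltransferase, for Khk (0.93). For Fbp1 the closest was Sephs2, which makes selenophosphate (0.94), for G6pc the cortactin gene Cttn (0.87) and for Pck1 the fatty acid activating enzyme gene Acsl5 (0.91).

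Other genes of sugar handling were counted by list in the same fits. Of the other hexose transporters, 4 of 4 tested were higher in the mid-villus than in the crypt, where 16.4% of all genes were. They were Slc5a4b (7.04 ± 5.46 to 95.6 ± 43.7 CPM, SD, n = 5 mice), Slc5a11 (23.8 ± 13.8 to 114 ± 45.6), Slc5a9 and Slc2a9, with log2 changes of 3.85, 2.41, 1.95 and 1.57, against a median of -0.04 over all genes. At the tip 2 of 4, Slc5a4b (-2.17) and Slc5a11 (-1.71), were lower than in the mid-villus, as were 6.18% of all genes. Among genes of fructose and polyol metabolism, Sord, which makes fructose from sorbitol, rose to the mid-villus by 1.73, while Aldh1b1, a mitochondrial aldehyde dehydrogenase, fell by 1.61. The triokinase gene Tkfc fell from mid-villus to tip by 1.08.

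Of 6 other gluconeogenic genes tested, 4 were higher in the mid-villus than in the crypt, where 16.4% of all genes were, and 1 was lower. The pyruvate carboxylase gene Pcx stood higher at the tip than the crypt (27.2 ± 8.86 against 3.97 ± 1.80 CPM, log2 3.12, edgeR adjusted p = 5.8e-06). Slc37a4, the glucose 6-phosphate carrier that works with G6pc, went the other way at the tip (5.97 ± 5.75 against 32.4 ± 7.04 CPM, log2 -1.64), and Fbp2, the second fructose bisphosphatase gene, fell from mid-villus to tip by 1.15. Of 13 glycolytic genes, 4 differed between mid-villus and crypt (Tpi1, Eno1 and Pklr higher, Aldoa lower), where 39.9% of all genes did. Between tip and crypt 3 of 13 did, against 52.7%, and between tip and mid-villus 1 of 13, against 11.9%, Hk2 (hexokinase 2), which was higher by 2.58. The same shares of all genes (39.9, 52.7 and 11.9%) stand beside the next lists. In galactose metabolism 1 of 3 genes, Galm, rose to the mid-villus (1.17) and fell to the tip by 0.93, and Galk1 was lower at the tip than the crypt (-1.48). Among 5 genes of sugar sensing, Pfkfb3 (3.32) and Mlx (0.59) were higher in the mid-villus than in the crypt, Pfkfb3 (3.85) and Arrdc4 (0.94) at the tip than in the crypt, and Arrdc4 (1.83) at the tip than in the mid-villus. Of 4 enterocyte transcription factor genes, Hnf4g rose to the mid-villus (1.19), Hnf4a was higher at the tip than the crypt (0.74), and none differed between tip and mid-villus.

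Single enterocytes were placed in zones by the same landmarks, with 3 mice in the crypt and 4 in each villus zone. Slc5a1, Slc2a2, Slc2a5 and Khk passed the filter, and from mid-villus to tip Slc2a2 and Khk fell. For Slc2a2 crypt cells held 79.7, 68.6 and 70.9 CPM in mice 2 to 4, mid-villus cells 18.5, 195, 122 and 228 CPM in mice 1 to 4 and tip cells 5.48, 30.3, 32.3 and 32.1 CPM. The tip lay below the mid-villus in each mouse, 4.14-fold in the fit (log2 -2.05, standard error 0.42, edgeR adjusted p = 0.0025). Khk stood at 111, 233, 156 and 249 CPM in mid-villus cells and at 45.0, 73.1, 48.4 and 75.7 CPM at the tip, with no overlap and 1.87-fold lower at the tip (log2 -0.90, standard error 0.27, adjusted p = 0.021). These were 2 of 4 genes, where 26.7% of all 1799 genes differed and 12.1% were lower. Each call was lost when mouse 2 or mouse 4 was left out (adjusted p = 0.061 and 0.055 for Slc2a2, 0.21 and 0.15 for Khk), and that of Khk also without mouse 3 (0.052) and with no filter (0.26).

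Slc5a1 stood at 914, 735 and 1083 CPM in crypt enterocytes of mice 2 to 4, at 463, 1392, 1236 and 1550 CPM in mid-villus cells of mice 1 to 4 and at 264, 472, 645 and 500 CPM at the tip. Mouse 1 was the lowest of its zone in both villus zones. Each of the 3 mice with all zones was highest in the mid-villus, but neither the rise (log2 0.73, edgeR adjusted p = 0.10) nor the fall (-0.56, adjusted p = 0.15) passed. With the mouse as a block, where 36.1 and 37.4% of all genes differed, both did (adjusted p = 0.0028 and 0.026). The rise also passed with enterocyte-like clusters in place of marker sums (1.92, 0.00079), with the immune list without Cd74 (0.72, 0.043) and without mouse 1 (0.95, 0.017), and the fall with total UMIs alone (-1.35, 0.029) and without Cd74 (-0.78, 0.014). For Slc2a5 the levels were 55.2, 44.1 and 14.2 CPM in the crypt, 0, 52.6, 88.3 and 49.2 CPM in the mid-villus and 5.48, 7.57, 48.4 and 18.4 CPM at the tip, the zones overlapped and no test passed. With enterocyte-like clusters the rises of Slc2a5 (1.57, edgeR adjusted p = 0.044) and Khk (0.86, 0.025) from crypt to mid-villus did.

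Between mid-villus and crypt cells, 1 of the 4 genes was called, Slc2a2 (2.54-fold, log2 1.35, standard error 0.42, edgeR adjusted p = 0.021), where 26.7% of all genes were. It was lost in 3 of 4 fits that left out a mouse (adjusted p = 0.093 to 0.19), with no filter (1.33, 0.091), by z score (1.26, 0.22) and with total UMIs alone (0.97, 0.36). Between tip and crypt cells the edgeR test called 0 of 4, and 0 had an unadjusted p under 0.05, where 62.1% of all genes were called. The scaling mattered here. In CPM, Slc5a1, Slc2a2 and Khk were lower in tip cells in 3 of 3 mice, with no overlap between zones. With scaling by total UMIs alone, which moved the median log2 change of all genes from 0.07 to -1.09, Slc2a2 (-1.73, adjusted p = 0.036) and Khk (-1.71, adjusted p = 0.0064) were lower at the tip, and Slc5a1 turned from 0.16 to -1.05 (adjusted p = 0.060). With enterocyte-like clusters Slc5a1 was instead higher at the tip (1.25, 0.011), and without Cd74 in the immune list Khk was lower (-0.77, 0.011). Of the calls at the tip against the crypt 48.5% were higher, and 10.3% under this scaling.

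The 3 gluconeogenic genes were too rare for a test in single enterocytes. Fbp1 had 13 UMIs in mid-villus cells of 4 mice and 1 UMI at the tip, of 1171457 and 1867984 UMIs, a ratio of 20.7 (exact 95% interval 3.11 to 881, counting error only). Mouse 1 gave 911785 of the tip UMIs and 107964 of the mid-villus UMIs, and without it the ratio was 11.7 (1.76 to 497). G6pc had 18 and 3 UMIs (ratio 9.57, interval 2.79 to 50.7), with a ratio of 16.2 (2.56 to 674) without mouse 1 and 5.71 (1.30 to 34.2) without mouse 2. Crypt cells did not lie below mid-villus cells for either gene in pooled CPM, at 12.1 against 11.1 for Fbp1 (7 and 13 UMIs) and 17.3 against 15.4 for G6pc (10 and 18 UMIs). Of the 3 mice with all zones, Fbp1 was highest in the crypt in 2 and G6pc in 1. With enterocyte-like clusters in place of marker sums, crypt cells did lie below mid-villus cells in pooled CPM. They stood at 10.5 against 12.3 for Fbp1 (11 and 36 UMIs) and at 4.78 against 15.0 for G6pc (5 and 44 UMIs). By marker sums, Pck1 had 60 and 19 UMIs in mid-villus and tip cells (ratio 5.04, interval 2.96 to 8.94). Its mid-villus cells stood above crypt cells in 3 of 3 mice, at 42.1, 81.5 and 69.4 against 12.3, 14.7 and 9.46 CPM. Tip cells stood near crypt cells for Pck1, unlike in clumps. Their means were 13.9 ± 8.89 and 12.1 ± 2.63 CPM (SD, n = 4 and 3 mice), and pooled levels were 10.2 and 12.1 CPM. Slc2a1 had 1 UMI in all single enterocytes with a zone, from a crypt cell.

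**Figure D3:**
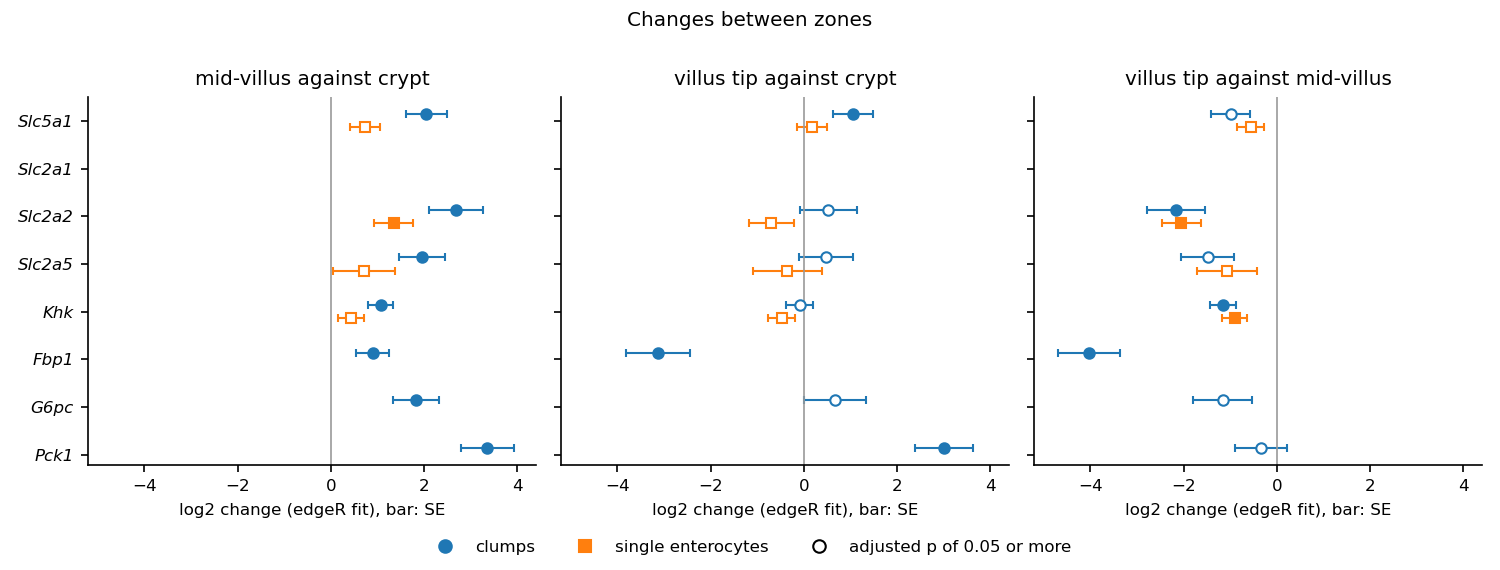
Fitted log2 changes (x axis) of the tested genes between zones, with bars of 1 standard error, in clumps of 5 mice (circles) and single enterocytes of up to 4 mice (squares); open symbols did not pass the adjusted p of 0.05 and genes with no symbol were not tested. From crypt to mid-villus all 7 circles are filled, and from mid-villus to tip Slc2a2 and Khk are filled in both kinds of well.

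The lists were also counted in single enterocytes, where 26.7% of all genes differed between mid-villus and either other zone and 62.1% between tip and crypt. Sord was higher in the mid-villus (1.77) and at the tip (1.12) than in the crypt, Aldh1b1 lower (-1.40 and -2.50), and Tkfc lower in tip cells than in crypt (-0.97) or mid-villus cells (-0.90). Aldoa was lower in both villus zones (-1.16 and -1.71) and Pklr higher at the tip (1.12), out of 11 glycolytic genes. Mdh2 was lower in tip than in crypt cells (-0.87), out of 3 gluconeogenic genes. Hnf4a was higher at the tip than in either other zone (1.23 and 1.08), and Txnip, a target of the sugar-responsive factor ChREBP, higher at the tip than in the mid-villus (1.12). In CPM, tip and mid-villus cells stood at 148 ± 64.6 and 117 ± 30.9 for Hnf4a and 57.1 ± 24.9 and 41.3 ± 9.64 for Txnip (SD, n = 4 mice). In CPM, tip and crypt cells were close for Sord (58.7 ± 42.3 and 59.0 ± 51.5), Pklr (66.2 ± 34.4 and 70.8 ± 20.6) and Hnf4a (148 ± 64.6 and 139 ± 27.7; SD, n = 4 and 3 mice).

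Across cell types, Slc2a1 and the other transporters sorted apart. Single cells were classed by UMIs of marker lists into 1342 enterocytes, 210 goblet, 217 enteroendocrine, 185 tuft and 1901 immune cells, and sums by mouse were tested as before, with 5 of the 8 genes past the filter. These passed it through the classes where they are high, so counts over the 5 are given as a description only. Slc5a1, Slc2a2 and Khk were lower in each of the 3 secretory classes than in enterocytes, Slc2a5 was lower in goblet and tuft cells, and Slc2a1 was higher in goblet and tuft cells. All 5 genes tested differed between goblet cells and enterocytes, where 13.5% of 5592 genes did.

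**Figure D4:**
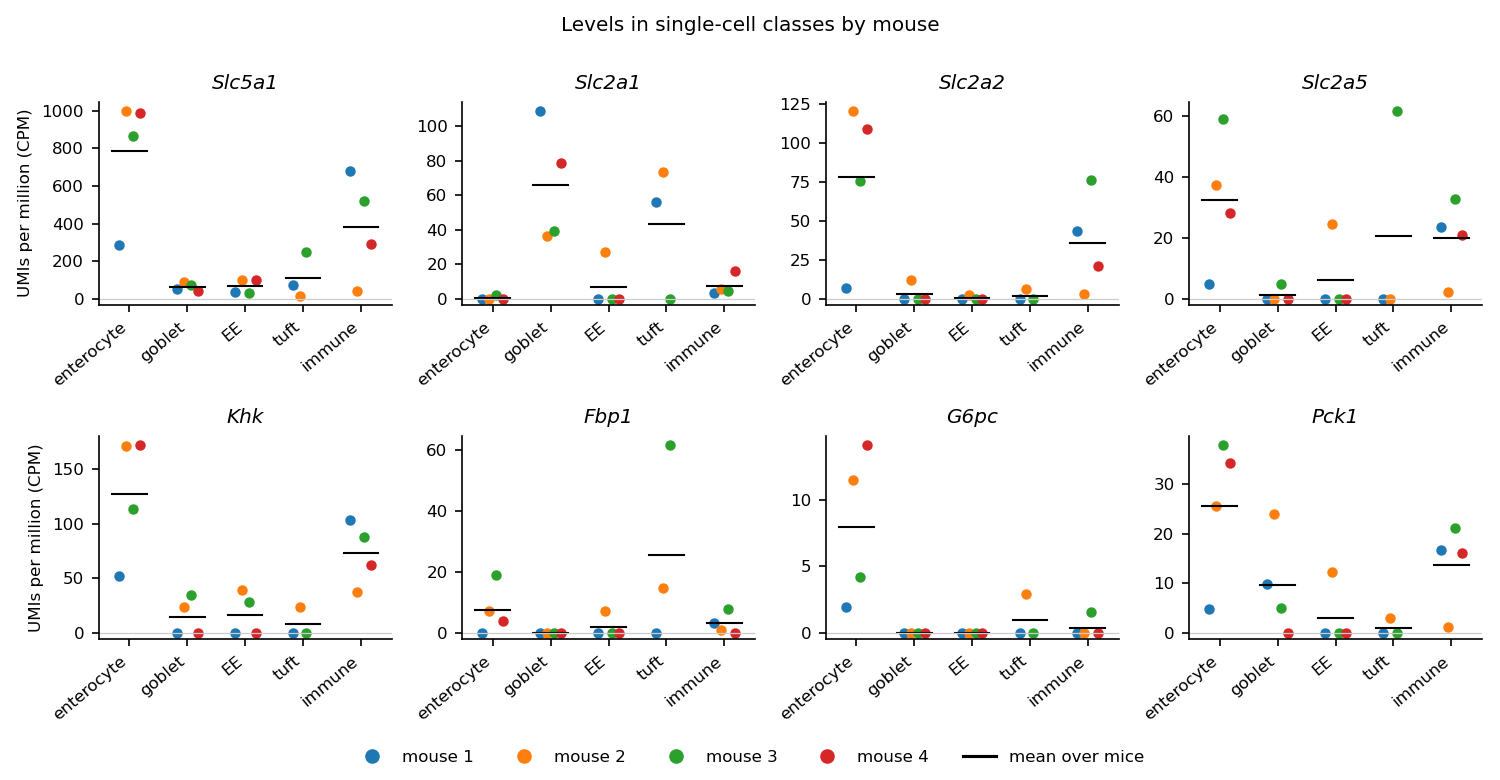
Levels of the 8 genes in single-cell classes (EE, enteroendocrine), in CPM (linear axes); colored points are mice 1 to 4 and the bar is the mean over mice. Slc2a1 reaches 109 CPM in goblet and 73.2 CPM in tuft cells with at most 2.10 CPM in enterocytes, and Slc5a1 reaches 1000 CPM in enterocytes.

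Slc2a1 stood at 0, 0, 2.10 and 0 CPM in enterocytes of mice 1 to 4, a single UMI in all. In goblet cells it stood at 109, 36.1, 39.4 and 78.7 CPM, from 11, 6, 8 and 2 UMIs, above enterocytes in 4 of 4 mice with no overlap. In tuft cells it stood at 56.0, 73.2 and 0 CPM in mice 1 to 3, from 3, 25 and 0 UMIs, with mouse 4 left out for having under 5 cells. The fit put goblet cells above enterocytes by 6.33 on the log2 scale (standard error 0.91, edgeR adjusted p = 6.0e-06) and tuft cells by 5.85 (standard error 0.95, adjusted p = 2.7e-05), values that depend on the prior count and on a gene that passed the filter only through classes where it is high. The ratio of pooled UMIs was 197 for goblet (exact 95% interval 32.5 to 8067) and 246 for tuft cells (interval 40.7 to 10075), counting error only. Without mouse 1 the goblet ratio was 105 (16.4 to 4417), and without mouse 2 the tuft ratio was 107 (8.59 to 5617). The tuft call was lost without mouse 2 (log2 4.62, adjusted p = 0.10).

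A UMI of Slc2a1 was found in 11.4% of goblet cells (24 of 210), 14.6% of tuft cells (27 of 185) and 0.0745% of enterocytes (1 of 1342), at median depths of 2044.5, 2215 and 2291 UMIs. With every cell thinned to 500 UMIs, shallower cells left out, the shares were 1.47% of 204 goblet, 4.44% of 180 tuft and 0% of 1327 enterocytes, a count that allows up to 0.226%. Wells under 100 UMIs held no Slc2a1 in 3 of 4 mice and 2 UMIs in 695 wells of mouse 2, or 70.7 CPM, near the tuft level of that mouse and above its goblet level. The part of free RNA was not tested. In enteroendocrine cells all 11 UMIs of Slc2a1 came from mouse 2, which also gave 187 of the 217 cells, 160 of them from plates sorted for CD24. The call there (log2 4.24, edgeR adjusted p = 0.0044) rests on that mouse, and without it the change was -1.65. In the immune class Slc2a1 stood at 3.35, 5.36, 4.69 and 16.2 CPM, above enterocytes in 4 of 4 mice (log2 2.98, standard error 1.01, adjusted p = 0.027). The call was lost without mouse 2 (2.37, adjusted p = 0.26) or mouse 4 (2.09, adjusted p = 0.23) and in DESeq2 (3.21, adjusted p = 0.057). The value of mouse 1 was 1 UMI, in a class sum with 10554 UMIs of enterocyte markers against 1442 of the immune list. Without Cd74 in that list, the immune class of mouse 1 held no Slc2a1 UMI.

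Clumps were also split by their secretory content. Those with at least 10 UMIs of the goblet list and of no other secretory list held 71 Slc2a1 UMIs in 6558689, and those with no secretory list at that level 46 in 15874372. By mouse, the goblet-containing clumps stood at 7.79, 14.4, 11.0, 11.2 and 0 CPM and the clumps with no list at 0.768, 1.03, 1.46, 5.77 and 0 CPM, higher with goblet markers in 4 of 5 mice. Other secretory content gave pooled levels of 13.5 CPM with the enteroendocrine list (3 UMIs), 9.84 with the tuft list (4 UMIs), 8.73 with several lists (42 UMIs) and 4.84 with the Paneth list (22 UMIs), against 10.8 CPM with the goblet list and 2.90 with none. In the crypt the counts were 60 UMIs in 5892821 against 44 in 10579255 (pooled 10.2 and 4.16 CPM), in the mid-villus 5 UMIs in 528179 against 1 in 3914504, and at the tip 5 in 123850 against 1 in 1380613. Of the 46 UMIs in clumps with no list, 35 came from crypt clumps of mouse 4. The study lists Slc2a1 among tuft and enteroendocrine crypt landmarks that it chose on these clumps. These values are given with no test.

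**Figure D5:**
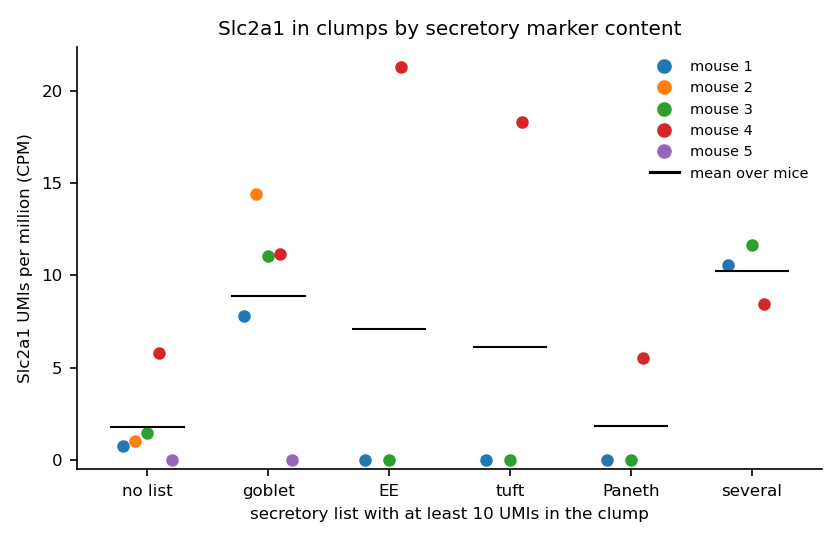
Slc2a1 level in clumps (y axis, CPM, linear) by which secretory marker list reaches 10 UMIs in the clump (x axis; EE, enteroendocrine); colored points are mice 1 to 5 and the bar is the mean over mice. Clumps with goblet markers stand at 0 to 14.4 CPM and clumps with no list at 0 to 5.77 CPM.

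Slc5a1 stood at 285, 1000, 867 and 990 CPM in enterocytes of mice 1 to 4, at 49.4, 90.3, 73.8 and 39.4 CPM in goblet cells, at 35.9, 97.6, 28.0 and 96.9 CPM in enteroendocrine cells and at 74.7, 11.7 and 247 CPM in tuft cells of mice 1 to 3. Enterocytes were higher in every mouse, with no overlap. The log2 changes from enterocytes were -4.06 in goblet (edgeR adjusted p = 0.00069), -4.71 in enteroendocrine (adjusted p = 0.00013) and -4.83 in tuft cells (adjusted p = 0.00066). A UMI of Slc5a1 was found in 65.5% of enterocytes and 13.8, 14.7 and 5.41% of goblet, enteroendocrine and tuft cells, or 29.8, 1.96, 4.19 and 1.67% after thinning to 500 UMIs. Wells under 100 UMIs carried Slc5a1 at 157 to 475 CPM, above the levels in goblet and enteroendocrine cells. These were 2, 7, 5 and 15 UMIs in 681, 695, 247 and 1005 such wells of mice 1 to 4, against 5, 15, 15 and 1 UMIs in 44, 79, 72 and 15 goblet cells. The part of free RNA in the secretory levels was not tested.

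Slc2a2 stood at 6.86, 120, 75.8 and 109 CPM in enterocytes. In secretory cells it had 2 UMIs in goblet, 1 in enteroendocrine and 2 in tuft cells, against 287 in enterocytes, pooled ratios of enterocytes to each class of 19.7 (exact 95% interval 5.39 to 163), 38.4 (6.83 to 1521) and 16.3 (4.47 to 135), counting error only. All these UMIs of secretory cells came from mouse 2, without which the lower ends were 5.36, 1.20 and 1.13, and without mouse 3 the goblet ratio was 11.7 (3.20 to 97.0). The edgeR test called all 3 (adjusted p = 0.0026, 0.00082 and 0.0033), that of tuft cells no longer without mouse 2 (0.075). Khk stood at 51.9, 172, 114 and 172 CPM in enterocytes, at 0, 24.1, 34.4 and 0 CPM in goblet cells, at 0, 39.0, 28.0 and 0 CPM in enteroendocrine cells and at 0, 23.4 and 0 CPM in tuft cells. Enterocytes were above each secretory class with no overlap in CPM (log2 -3.15, -3.23 and -3.95, adjusted p = 0.0030, 0.0022 and 0.0016). Some of the zeros came from sums too shallow to show this. There 3 UMIs would have been 118 CPM in goblet cells of mouse 4 and 108 and 291 CPM in enteroendocrine cells of mice 1 and 4. In tuft cells of mice 1 and 3 they would have been 56.0 and 185 CPM, against 51.9 CPM in the lowest enterocyte sum. A UMI of Khk was found in 23.6% of enterocytes and 4.29% of goblet cells, and its level in wells under 100 UMIs was 0 to 154 CPM.

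Slc2a5 stood at 4.90, 37.2, 58.9 and 28.2 CPM in enterocytes, with 1 UMI each in goblet and tuft cells (log2 -4.27 and -4.31, edgeR adjusted p = 0.015 and 0.020). The single tuft UMI put mouse 3 at 61.6 CPM, above every enterocyte value. Both calls were lost without mouse 4 (adjusted p = 0.071 and 0.052), and that in tuft cells also with total UMIs alone (-3.22, 0.11). In enteroendocrine cells 10 UMIs came from mouse 2 alone, 24.4 CPM, and the change of -1.84 did not pass (adjusted p = 0.11), though it did without mouse 1 (-2.21, 0.022) and with no filter (-2.20, 0.028). Of the tested genes, 4 of 5 differed between enteroendocrine cells and enterocytes, where 23.8% of all genes did, 5 of 5 between tuft cells and enterocytes (18.3%) and 2 of 5 between immune cells and enterocytes (30.4%). Mitochondrial genes took 30.3 to 33.0% of UMIs in enterocytes of the 4 mice and 8.89 to 23.5% in the other classes. Scaling by total UMIs alone put the median log2 change of all genes between 0.54 and 1.42, and the 5 genes kept their directions with it, although the tuft call of Slc2a5 and the immune call of Slc2a2 were lost. The share of calls that were higher moved with it from 44.4 to 69.8% in goblet, 47.6 to 90.1% in enteroendocrine, 44.8 to 83.7% in tuft and 65.9 to 96.5% in immune cells.

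The gluconeogenic genes stayed under the filter in the class fit. G6pc had 31 UMIs in enterocytes, none in goblet or enteroendocrine cells, where a count of 0 allows 1.43% of 210 and 1.38% of 217 cells to hold a UMI, and 1 in tuft cells. Fbp1 had 21 UMIs in enterocytes, none in goblet, 3 in enteroendocrine and 6 in tuft cells, the last at a ratio to enterocytes of 2.51 (exact 95% interval 0.830 to 6.44). Pck1 had 86 UMIs in enterocytes and 6, 5 and 1 in goblet, enteroendocrine and tuft cells. The interval of the ratio of enterocytes to tuft cells was 1.71 to 390, with a lower end of 0.419 without mouse 2. Those to goblet (0.866 to 5.50) and enteroendocrine cells (0.948 to 7.26) included 1, but without mouse 1 they were 1.01 to 7.78 and 1.17 to 8.99.

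The immune class by marker sums held enterocyte signal, and its differences from enterocytes grew with stricter classes. Slc5a1 stood at 679, 39.6, 520 and 292 CPM in the immune class of mice 1 to 4, Slc2a2 at 43.5, 3.21, 75.9 and 20.8 CPM and Khk at 104, 37.5, 87.6 and 62.5 CPM. Of the 1901 cells, 154 lay in the enterocyte-like cluster and 327 in an unnamed one, and enterocyte markers took 3.53% of the UMIs of the class in mouse 1. Of the 716 immune cells of mouse 2, the lowest in each of these genes, 711 came from CD24 plates. Slc2a2 was called lower than in enterocytes (log2 -1.68, edgeR adjusted p = 0.045) though in only 2 of 4 mice, a call lost without mouse 2, mouse 4 or the CD24 plates (adjusted p = 0.27, 0.27 and 0.37), in DESeq2 (0.13) and with total UMIs alone (-1.06, 0.19). Slc5a1 (-1.64, adjusted p = 0.073) and Khk (-1.51, adjusted p = 0.053) passed with the mouse as a block (adjusted p = 0.012 and 0.018), as did Slc2a5 (-1.39 and adjusted p = 0.080 without it, 0.013 with it) and 43.8% of all genes. With Cd74, which enterocytes also express, left out of the immune list, the change of Slc5a1 was -5.35 and that of Khk -3.67. With at least 20 marker UMIs Slc5a1 was -4.25 (4.7e-06), Slc2a5 -3.50 (2.4e-05) and Khk -2.79 (4.3e-05) by edgeR, and with clusters Slc5a1 was -4.49 (6.5e-07) and Khk -3.36 (1.3e-05). Without mouse 1 all 3 passed as well (-2.66, -2.02 and -2.24).

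The same lists were counted in the classes. Of the fructose genes, Tkfc and Sord were lower than in enterocytes in goblet (log2 -2.75 and -2.00), tuft (-4.16 and -3.13) and enteroendocrine cells (-4.14 and -2.66), where 7.49, 10.1 and 12.5% of all genes were lower, and Aldh1b1 was lower in enteroendocrine cells (-2.17). Of 13 glycolytic genes, Hk2 was the only one higher in goblet cells (87.1 ± 58.8 against 5.87 ± 3.88 CPM, SD, n = 4 mice, log2 3.27, edgeR adjusted p = 0.0016), and Hk1 the only one higher in tuft cells (54.5 ± 14.9 against 0.221 ± 0.443 CPM, SD, n = 3 and 4 mice, log2 5.79, adjusted p = 2.8e-05) and in immune cells (4.97). At these levels in enterocytes Hk2 and Hk1 passed the filter only through classes where they are high, as Galk1 and Pfkfb3 did in the main, and of the 1021 genes called in tuft cells 200 were called without mouse 2. In tuft cells the galactokinase gene Galk1 stood at 206 ± 89.9 against 5.08 ± 3.49 CPM (log2 3.90) and Pfkfb3 at 178 ± 59.8 against 15.0 ± 12.7 CPM (2.10). Mlxipl, the gene of the sugar-responsive factor ChREBP, was lower in goblet cells (-4.60), and Creb3l3 lower in goblet (-4.27), enteroendocrine (-6.63) and tuft cells (-5.68). Enteroendocrine cells had 2 of 13 glycolytic genes higher and 7 lower, and the balance of higher and lower calls over all genes in these cells moves with the scaling, as given above. Over all genes, 5.97% were higher in goblet, 8.17% in tuft, 11.4% in enteroendocrine and 20% in immune cells.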

How the data were processed

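Clumps and single cells of mouse jejunum were sequenced by MARS-seq, with reads aligned and counted by the authors with STAR and zUMIs against GRCm38 with Ensembl gene models, after bcl2fastq 2.15.0.4 per the labels. What the authors deposited are UMI counts in whole numbers, in a table for each kind of well (38454111 UMIs in 17162 wells of clumps, 39137313 in 16850 wells of cells), before the background subtraction and filters of the paper. Every well matched a labelled plate. Well barcodes recur on every plate, so a shared barcode does not mark a shared cell. The 8 genes and the lists were chosen with earlier results of these data known. Genes were named by rule, which was the 8 genes, up to 4 called genes of highest mean CPM per list, and the 2 genes most alike to each member by Pearson's r of log2(CPM + 5) among landmark-free genes of at least 50 CPM.

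A clump had to hold over 500 UMIs from at least 200 genes, with no more than 30% from mitochondrial genes (6004 clumps), after which the lowest 2% by landmark share were dropped. The zone was the landmark list whose indicator correlated best with the clump's landmark levels. For cells the limits were 150 to 1500 genes, 200 to 7000 UMIs and a mitochondrial share of up to 40% (5199 cells). A class needed 10 or more UMIs of its list, a secretory or immune class more than of any other such list, and an enterocyte under 3 UMIs of each other list. An enterocyte needed 5 landmark UMIs for a zone. No doublet caller was run. UMIs were summed by mouse, with at least 5 wells per sum, and tested with edgeR 4.0.16 (quasi-likelihood, TMM, filterByExpr, Benjamini-Hochberg over all genes, threshold 0.05). Landmarks were left out of the zone tests after scaling. The test recovered changed genes in simulated counts. Pooled ratios have exact binomial 95% intervals, and these and the limits from 3 counts cover counting error only. A mouse is taken as 1 animal by its number in the labels. For single-cell mouse 2, with plates labelled as 3 and as 4 months, the labels do not settle this. Groups of 1 mouse are paired: after group means were removed, sums of the same mouse correlated at 0.181 to 0.556 between zones of clumps, at 0.0938 to 0.534 in single enterocytes and at -0.165 to 0.498 between classes. Alternatives covered a block for the mouse, leaving out each mouse, DESeq2 1.42.0 and its size factors, no filter, subtraction of the 4 emptiest wells per plate, depth, zone and class rules, clusters (scanpy 1.11.5), and plates sorted for CD24. Larger clumps only, an immune list without Cd74 and scaling by total UMIs alone were chosen after seeing the data. The authors' mouse 6 was left out of the tests. An item of the fructose list is not reported here.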

Additional observations from a re-analysis of the deposited data

Results flagged for a closer look

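In 15 of 67 groups of 4 or 5 mice, 1 mouse stood farther from the others than a 95% limit on its gap allows (Dixon's ratio). Where all other mice stood at 0 CPM, any UMI in the remaining mouse is flagged by construction. The chance rate of about 1 group in 20 is for continuous values and does not hold for such groups. The count of flags is therefore not set against it. In clumps these were Slc2a1 in the crypt of mouse 4 (8.00 CPM from 152 UMIs, the others at 3.15 or less), Slc2a5 at the tip of mouse 2 (75.2 CPM, next 19.9) and Pck1 at the tip of mouse 2 (97.8 CPM, next 27.0). In single enterocytes Slc2a2 at the tip was low in mouse 1 (5.48 CPM, the others 30.3 to 32.3), and the only Fbp1 UMI at the tip came from mouse 3 (8.07 CPM).

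Among classes, the only Slc2a1 UMI of enterocytes came from mouse 3 (2.10 CPM), and Slc2a1 in immune cells was high in mouse 4 (16.2 CPM from 7 UMIs, next 5.36). Enteroendocrine cells had UMIs of 5 genes in mouse 2 alone, which gave most of these cells: Slc2a1 (26.8 CPM, 11 UMIs), Slc2a5 (24.4 CPM, 10 UMIs), Pck1 (12.2 CPM, 5 UMIs), Fbp1 (7.32 CPM, 3 UMIs) and Slc2a2 (2.44 CPM, 1 UMI). The others rest on 1 or 2 UMIs: Slc2a2 in goblet cells of mouse 2 (12.0 CPM), Slc2a5 in goblet cells of mouse 3 (4.92 CPM) and G6pc in immune cells of mouse 3 (1.56 CPM).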

How the results depend on the processing

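Over 53 results of the 8 genes and 780 values under alternatives, 655 kept direction and side of the threshold, 60 lost the call, 42 gained it and 23 changed sign. Counts of genes called moved as follows, with the ranges over fits that left out 1 mouse last. Mid-villus against crypt clumps (2945): 1475 in pairs only, 1185 in larger clumps only, 1701 (without mouse 3) to 3201. Tip against crypt clumps (3890): 2391 in pairs, 1070 in larger clumps, 2488 (without mouse 3) to 4078. Tip against mid-villus clumps (877): 1994 with the replicate block, 519 in pairs, 101 with zones by z score, 5 in larger clumps, 318 (without mouse 1; 332 without mouse 2, 328 without mouse 3) to 962. In single enterocytes, mid-villus against crypt (480) gave 1374 with enterocyte-like clusters, 801 with the immune list without Cd74, 0 in edgeR with zones by z score (284 with an unadjusted p under 0.05) and 291 (without mouse 4) to 511; tip against crypt (1117) gave 2001 with no filter, 2424 with clusters, 730 by z score, 2028 without Cd74 and 796 to 1445; tip against mid-villus (481) gave 1102 with clusters, 1061 without Cd74 and 58 (without mouse 2; 68 without mouse 4) to 478. Between classes, goblet (753) gave 446 without CD24 plates and 373 (without mouse 2; 408 without mouse 4, 470 without mouse 3) to 998; enteroendocrine (1333) gave 2421 with no filter, 424 without CD24 plates, 2261 with total UMIs and 624 (without mouse 2; 814 without mouse 4) to 1838; tuft (1021) gave 466 without CD24 plates and 200 (without mouse 2) to 1237; immune (1699) gave 3871 with no filter, 3087 at 20 marker UMIs, 27 without CD24 plates and 175 (without mouse 2; 379 without mouse 4) to 3243 (without mouse 1).

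Signs changed as follows on the log2 scale. At the tip against the crypt in clumps they changed for 4 genes that were not called with all clumps: in pairs Slc2a2 -0.16, Slc2a5 -0.51 and G6pc -0.62; without 1 mouse Slc2a5 -0.67 (mouse 2) to 0.69 and Khk -0.18 to 0.11 (mouse 2); with a zone margin of 0.1 Slc2a2 -0.16 and G6pc -0.20; in larger clumps Slc2a5 -0.13 and Khk 0.25; by z score Khk 0.67 (edgeR adjusted p = 0.037, a call); with total UMIs Slc2a5 -0.0070. Mid-villus against crypt, Fbp1 was -0.042 in pairs. In single enterocytes, tip against crypt, Slc5a1 was -0.26 (mouse 3) to 0.46 (mouse 2) without 1 mouse, -0.60 by z score, -1.05 with total UMIs and -0.068 without Cd74; Slc2a5 was 0.27 with the replicate block, -0.72 (mouse 4) to 0.45 (mouse 2) without 1 mouse and 0.61 with clusters; with clusters Slc2a2 was 0.21 and Khk 0.0072. Mid-villus against crypt, Khk was -0.038 with total UMIs. Slc2a1 in enteroendocrine cells was -1.65 (mouse 2) to 5.50 (mouse 3) without 1 mouse. The cause of these changes was not tested. Apart from the calls named with the results, the replicate block changed none. Depth limits Fbp1, G6pc and Slc2a1 most, with tip sums of 79055 to 816189 UMIs.

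Of single enterocytes, the share of calls that were higher moved with total UMIs from 30.2 to 7.40% at the mid-villus against the crypt and from 54.9 to 5.25% at the tip against the mid-villus, and with DESeq2's size factors from 47.6 to 35.9% in enteroendocrine cells.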

Other observations

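Clumps of mouse 6, labelled above 2n and in no comparison, had 118, 56 and 70 clumps in crypt, mid-villus and tip. Slc5a1 stood there at 510, 2624 and 444 CPM, Slc2a2 at 29.3, 241 and 7.04 CPM and Slc2a5 at 59.9, 140 and 35.2 CPM. Khk stood at 191, 448 and 120 CPM and Pck1 at 5.10, 74.0 and 0 CPM. Fbp1 stood at 14.0, 15.6 and 0 CPM, from 11, 4 and 0 UMIs, and G6pc at 5.10, 7.79 and 0 CPM, from 4, 2 and 0 UMIs. Slc2a1 stood at 2.55, 0 and 28.2 CPM, from 2, 0 and 4 UMIs.

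Clumps with no secretory list at 10 UMIs, from all 5 mice, held Slc5a1 at 2123 ± 799.9 CPM in the mid-villus (SD, n = 5 mice), 645 ± 367 in the crypt and 901 ± 473 at the tip, and Fbp1 at 43.7 ± 21.2, 31.3 ± 18.97 and 2.27 ± 2.45 CPM in the same zones.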
